A study of Rattus norvegicus with 50 samples.

Results

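In the medial prefrontal cortex of the rat, 402 genes kept a near-constant level between postnatal days 8 and 14 and had changed by day 70. They are described here as 243 risers and 159 fallers. They were chosen from 29516 Ensembl gene identifiers by their values in these same libraries. A gene needed a mean of at least 1 FPKM, a read count corrected for transcript length and for the size of the library, which 13213 identifiers had. The mean log2 level of the 10 libraries of day 14 had to lie within 0.3 of that of day 8, and that of day 70 had to lie at least 0.7 above or below that of day 14. The day 21 level also had to be less than 0.5 above the day 70 level. The changes that defined the members are therefore given as descriptions, without tests.

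The libraries were made from ribosomal-RNA-depleted total RNA of Wistar rats, 5 libraries for each genotype at postnatal days 8, 14, 21, 35 and 70, 50 in all. The genotypes were wild-type and a knockout of the serotonin transporter (SERT), the membrane protein that takes released serotonin back up into nerve terminals. The labels state neither how the knockout was made nor the sex of the animals, nor whether each library is a different rat. The p-values therefore cover only the variation from one library to the next. In every group some libraries share the first number of their titles, and no such number occurs in another group. The labels do not explain this number, and the main tests treated the libraries as separate units. The files give identifiers without gene symbols, so the roles of the members, the transporter transcript and markers of cortex or of other cell types were not analysed here.

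The ages span weaning and adolescence. In rodents, eye opening falls near the end of the second postnatal week, and in the weeks after it cortical neurons form and refine synapses, inhibitory circuits mature and axons become myelinated. Genes that first move in this later window are of interest because serotonin is known to act on the development of cortical circuits. In a piece of tissue, fewer cells of a type and less RNA per cell cannot be told apart.

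Depth could be compared between libraries only as a ratio, which ran from 0.398 to 1.42 times the median library. Total FPKM ran from 330440 to 2141919 per library, and the median correlation of a library with the others of its group from 0.925 to 0.977. The lowest correlations belonged to wild-type library 20-2 of day 14, knockout library 30-5 of day 8 and knockout library 17-1 of day 21. Without these 3 the same conditions chose 243 risers and 149 fallers. The number of members called is read against the share of all genes called in the same comparison.

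The risers were mostly genes of low level. Their mean over all libraries had a median of 3.49 FPKM, against 8.61 for the fallers and 6.98 for all 13213 genes that reached 1 FPKM. Only 45 of the 243 risers (18.5%) reached a mean of 10 FPKM, against 67 of the 159 fallers (42.1%) and 37.9% of all these genes. Another 42 risers had a mean under 1 FPKM at both day 8 and day 14 and met the minimum through their later libraries. At the other extreme, 14 risers and 8 fallers had a mean of at least 100 FPKM. These 14 risers varied widely between libraries of a group, with an SD of 0.977 to 1.52 log2 units, against a median of 0.23 in all risers. In most of them the day 35 level lay above the day 70 level.

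The sizes of the rises and falls are not directly comparable, because the condition on day 21 acted on fallers alone. It left out 108 of 267 genes that otherwise qualified as fallers, those still 0.5 or more above their day 70 level at day 21, and 0 risers. Between days 14 and 70 the risers gained a median of 0.89 log2 units on the log2(FPKM + 0.5) scale, with the middle of the distribution between 0.77 and 1.10 and a maximum of 2.63. The fallers lost a median of 0.84, written as a log2 change of -0.84, and their largest change was -1.62. A change of more than 1 log2 unit was reached by 85 risers (35.0%) and by 19 of the fallers that the condition left (11.9%). Without the added 0.5, the ratio of mean FPKM between these days had a median of 2.07 for the risers and 1.91 for the fallers. The thresholds cut through a continuous range of values. The smallest changes inside the limit of 0.7 were 0.7003, 0.7004 and 0.7009 and the largest outside it 0.6994, 0.6972 and 0.6971. At the limit of 0.3 for days 8 to 14 the values were 0.2994, 0.2991 and 0.2987 inside and 0.3002, 0.3005 and 0.3007 outside.

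The balance of risers and fallers depended on the condition on day 21 and on the scaling. Before that condition there were 243 risers and 267 fallers. With each library scaled by its median ratio to the other libraries, 60.4% of the members were risers. With the values as deposited the same conditions chose 183 risers and 240 fallers (43.3% risers), and with quantile normalization 207 and 172 (54.6%). The values as deposited moved the median change of all genes tested from day 14 to 70 to -0.08, against 0.01 with the scaling. Of the 243 risers, 169 were also chosen with the values as deposited and 191 with quantile normalization. The corresponding numbers for the 159 fallers were 132 and 140.

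**Figure D1:**
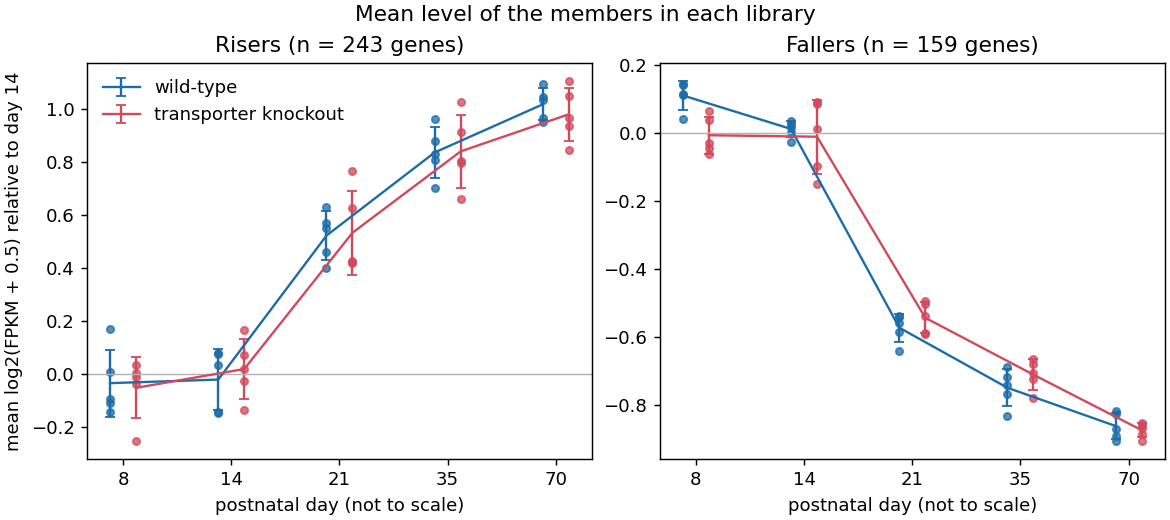
Mean log2(FPKM + 0.5) of the 243 risers and of the 159 fallers in each library, relative to the mean of the 10 libraries of day 14, by postnatal day. Points are libraries, lines join the means of 5 libraries and bars are SD. Relative to this day 14 mean of both genotypes, the risers of day 70 stood at 1.02 in wild-type and 0.98 in knockout rats, and the fallers at -0.86 and -0.87.

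The mean level of the members followed a similar course in both genotypes, which the choice favoured because it pooled them. Applied to each genotype alone, the conditions were met in both by 126 of the 243 risers and 65 of the 159 fallers. They were met in neither by 23 risers and 25 fallers. From the youngest age to the oldest, the mean log2 level of the risers in wild-type rats was 1.87 ± 0.127, 1.88 ± 0.115, 2.42 ± 0.091, 2.74 ± 0.096 and 2.92 ± 0.060 (SD over 5 libraries). The knockout values were 1.85 ± 0.115, 1.92 ± 0.112, 2.43 ± 0.158, 2.74 ± 0.136 and 2.88 ± 0.10 at the same ages. Every library of day 70 lay above every library of day 14, with a lowest value of 2.75 at day 70 and a highest of 2.06 at day 14. The choice of members favoured this separation. The fallers in wild-type rats stood at 3.75 ± 0.042, 3.65 ± 0.024, 3.07 ± 0.042, 2.89 ± 0.055 and 2.78 ± 0.039 in order of age. Their knockout values were 3.63 ± 0.055, 3.63 ± 0.108, 3.10 ± 0.045, 2.93 ± 0.045 and 2.77 ± 0.022. At day 8 the fallers of the knockout libraries lay lower, between 3.58 and 3.70, against 3.68 to 3.78 in wild-type libraries, and the ranges overlapped.

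Day 35 entered the choice of members only through the minimum mean of 1 FPKM over all 50 libraries, and not through the conditions on change, so its values are also given as descriptions. By day 35 the median riser had covered 79.6% of its log2 change between days 14 and 70, and the median faller 83.9%. By day 21 the shares were 51.2% and 60.1%. The shares of the fallers were fixed in part by the condition on day 21, so that the rises were free to come late and the falls were not.

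Among the risers, the step from day 14 to 21 was the largest of the 3 later steps in 172 genes, the step from day 21 to 35 in 43 and that from day 35 to 70 in 28. A minority of 28 risers had covered less than 25% of their change by day 21, and 40 had covered over 75%. The day 35 level lay between those of days 21 and 70 in 193 of 243 risers (79.4%). In 36 risers (14.8%) the day 35 level was already past the day 70 level. For the fallers, the first step was the largest in 145 of 159 and the last step in 0. The day 35 level of 119 fallers (74.8%) lay between those of days 21 and 70, and that of 20 fallers was past the day 70 level.

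**Figure D2:**
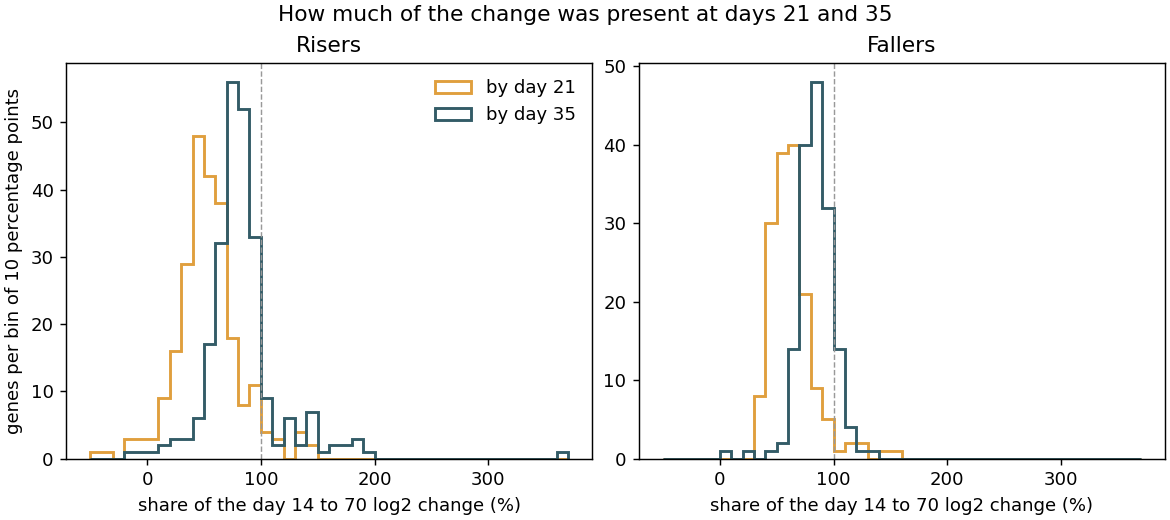
Share of the day 14 to 70 log2 change that each gene had covered by day 21 and by day 35, in bins of 10 percentage points, for risers and fallers. The dashed line at 100% marks the day 70 level, and the medians moved from 51.2% to 79.6% in risers and from 60.1% to 83.9% in fallers.

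The highest shares came from noisy genes. Across all risers the day 35 share ran from -12.5% to 368%. The spread between libraries of a group had a median of 0.23 log2 units in risers and 0.21 in fallers, against 0.19 in all 13213 genes, and 36 of the 402 members had a spread over 1. Some library listed 23 risers and 10 fallers at 0, which can be a failed estimate. Leaving out the members of either kind, an alternative chosen after seeing the data, kept 203 risers and 148 fallers. The median day 35 shares were then 79.1% and 84.2%, and the shares of the risers ran from -3.04% to 159%. The day 35 level was past the day 70 level in 15 of the risers kept, against 36 before, and in 18 of the fallers kept, against 20.

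The libraries of day 70 were separated from those of day 14 in most members. All 10 libraries of day 70 lay above all 10 of day 14 in 180 risers, where 8.49% of all genes did so, and all lay below in 116 fallers, where 8.26% did so. These days chose the members, so nothing is read from that contrast. At day 35, all libraries lay above all of day 14 in 125 risers (background 5.67%) and below in 87 fallers (background 5.65%), and this comparison shares the day 14 libraries with the choice. Between days 8 and 14, where the members were chosen to be flat, 2 risers and 1 faller showed such a separation, in either direction, against 12.0% of all genes.

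The riser with the largest change was ENSRNOG00000025691. At day 14 its FPKM was 0.302, 0.260, 0.136, 0.322 and 0.218 in the wild-type libraries and 0.169, 0.0934, 0.0942, 0.106 and 0.214 in the knockout libraries. At day 70 the wild-type libraries read 3.79, 4.69, 3.61, 4.09 and 3.00, and the knockout libraries 3.19, 4.39, 4.65, 3.43 and 3.06. The ages did not overlap, while the genotypes did at both ages. Over both genotypes, the median of 10 libraries went from 0.157 and 0.191 FPKM on days 8 and 14 to 0.632 on day 21, 2.62 on day 35 and 3.70 on day 70, so that most of the increase came after day 21. Mean FPKM rose 19.8-fold from day 14 to 70, but the change on the log2(FPKM + 0.5) scale was 2.63, since the level at day 14 was below the added 0.5. With 0.1 added in its place the change was 3.78, and with 1 it was 2.00.

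ENSRNOG00000020493 followed a like course, with 40.8% of its change by day 21 and 79.5% by day 35. Its FPKM at day 14 was 0.112, 0.108, 0.0855, 0.0981 and 0.0587 in wild-type libraries and 0.149, 0.125, 0.189, 0.201 and 0.213 in knockout libraries. At day 21 the wild-type libraries read 0.681, 0.712, 0.715, 0.780 and 0.547, and the knockout libraries 1.10, 0.837, 0.962, 0.816 and 0.807. At both ages every knockout library lay above every wild-type library, but at day 14 all of the values were below the added 0.5. These differences did not pass the limma test (adjusted p = 1 at day 14 and 0.999 at day 21), and such a separation held for 0.183% of all genes at day 14 and 0.345% at day 21. At day 70 the wild-type values of 3.19, 3.55, 2.37, 2.44 and 2.46 overlapped the knockout values of 4.30, 2.94, 2.79, 4.22 and 3.48. The change from day 14 to 70 was 2.52 log2 units, 3.81 with 0.1 added and 1.86 with 1 added.

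The largest fall was that of ENSRNOG00000021945. Its FPKM at day 14 was 15.7, 14.5, 12.6, 12.5 and 8.51 in wild-type libraries and 18.1, 15.8, 13.8, 11.7 and 11.0 in knockout libraries. At day 70 the wild-type libraries read 5.08, 6.13, 2.91, 3.27 and 4.35, and the knockout libraries 4.92, 3.66, 3.09, 3.89 and 3.10. No library of day 70 reached the lowest of day 14, and the log2 change was -1.62, of which 72.2% was present at day 21. At day 8 the wild-type values of 16.9, 15.8, 16.5, 15.9 and 13.7 lay above the knockout values of 14.4, 11.3, 10.2, 12.1 and 7.87 in all but 1 pair of libraries. The difference of -0.50 ± 0.18 (SE) did not pass (limma adjusted p = 0.331). With the genotypes pooled, the mean log2 level of this gene was 3.77 at both day 8 and day 14. Within the genotypes, mean FPKM went from 15.77 to 12.75 in wild-type libraries and from 11.17 to 14.05 in knockout libraries. The flat course of this gene was therefore that of the pooled libraries, in which a fall and a rise were averaged.

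ENSRNOG00000011646 had the next largest fall, with a log2 change of -1.52. At day 14 the wild-type libraries read 2.89, 2.88, 3.13, 3.12 and 2.35 FPKM, and the knockout libraries 3.56, 3.53, 3.07, 2.38 and 1.86 FPKM. At day 70 the wild-type libraries read 0.873, 0.342, 0.534, 0.695 and 0.643, and the knockout libraries 0.806, 0.752, 0.561, 0.709 and 0.833. The ages did not overlap, and 95.6% of the change was present at day 35. Its log2 change from day 8 to 14 with the genotypes pooled was -0.299, just inside the limit set for a flat course. Mean FPKM between these days went from 4.01 to 2.87 in wild-type libraries and from 3.31 to 2.88 in knockout libraries. The level was thus already lower at day 14 than at day 8, more so in wild-type libraries.

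**Figure D3:**
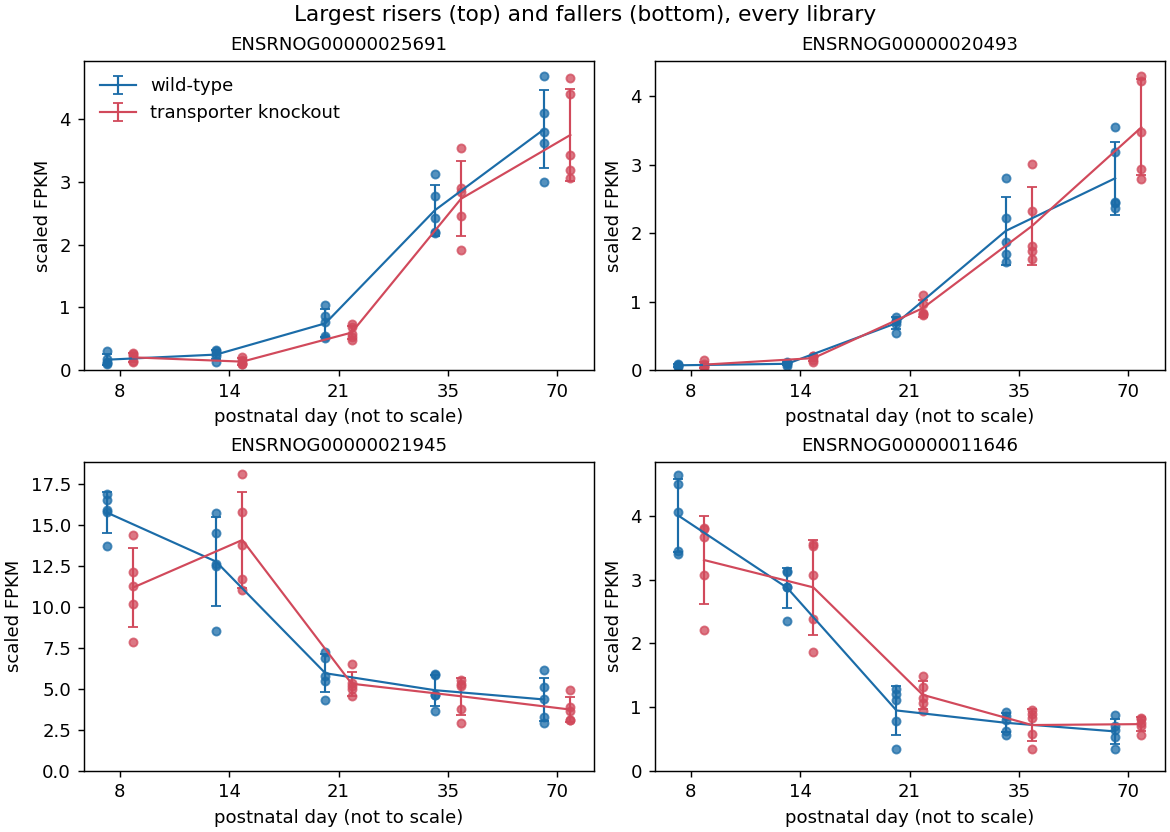
Scaled FPKM of the 2 risers and 2 fallers with the largest changes in each library, by postnatal day. Points are libraries, lines join the means of 5 libraries and bars are SD. In all 4 genes every library of day 70 lay beyond every library of day 14.

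Whether the late change held in libraries that had no part in the choice was tested across the genotypes. The same conditions were applied to the 25 wild-type libraries alone, and the genes they chose were measured in the 25 knockout libraries, which were scaled and fitted on their own. Of 271 risers chosen in wild-type rats, 207 (76.4%) were higher at day 70 than at day 14 in knockout rats and 0 were lower by limma, where 18.4% of 14768 genes were higher. Their median log2 change in knockout rats was 0.80, against 0.00 for all genes, and 264 of 271 changed in the same direction. Of 160 fallers, 144 (90.0%) were lower and 0 higher, where 18.1% of genes were lower, with a median change of -0.78, and all 160 had the same sign. In the opposite direction, 226 of 263 risers chosen in knockout rats (85.9%) were higher in wild-type rats, against 18.2% of 14795 genes, and 141 of 160 fallers (88.1%) were lower, against 18.3%. With the values as deposited the wild-type-chosen fallers called in knockout libraries numbered 246, from a longer list.

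The timing was also followed in these libraries. The day 21 condition was part of the choice in each genotype, so it favoured genes that had fallen early. The timing of the fallers is therefore given as a description. In knockout rats the wild-type-chosen risers gained a median of 0.43 log2 units from day 14 to 21, 0.25 from day 21 to 35 and 0.21 from day 35 to 70. The first step was called in 128 of 271 (47.2%, background 9.95%), the second in 40 (14.8%, background 1.44%) and the last in 2 (0.738%, background 0.0609%), and 0 were called lower in any of the 3. The fallers changed by medians of -0.44, -0.23 and -0.14. Of these 160, 101 were called lower in the first step (63.1%, background 9.16%), 27 in the second (16.9%, background 2.12%) and 0 in the last (background 0.0474%). At an unadjusted p under 0.05, 27 were lower and 0 higher in the last step. In wild-type rats, the knockout-chosen risers gained 0.48, 0.23 and 0.16. There 150 of 263 were called in the first step (57.0%, background 9.58%), 44 in the second (16.7%, background 1.57%) and 5 in the last (1.90%, background 0.0946%). The knockout-chosen fallers changed by -0.50, -0.17 and -0.11 in wild-type rats. There 116 of 160 were called lower (72.5%, background 9.67%), then 16 (10.0%, background 1.54%) and then 0 (background 0.182%). At an unadjusted p under 0.05, 11 were lower and 1 higher in the last step. The share of all genes at an unadjusted p under 0.05 is not given for these steps, so nothing is read from the unadjusted counts.

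The flat course up to day 14 was followed in the same way. In knockout rats, 176 of the 271 wild-type-chosen risers stayed within 0.3 from day 8 to 14, and 182 reached a change of 0.7 from day 14 to 70. The corresponding numbers for the 160 fallers were 116 and 112. In wild-type rats, 163 of the 263 knockout-chosen risers stayed within 0.3 and 196 reached 0.7, and 92 and 112 of the 160 fallers did so. A course within 0.3 was common, since 8072 of all 13213 genes that reached 1 FPKM kept it with both genotypes pooled. The counts within 0.3 therefore do not show by themselves that these lists were flatter than other genes. A background for 1 genotype alone is not given here. By limma, 35 of the 271 wild-type-chosen risers (12.9%) were called higher and 11 (4.06%) lower from day 8 to 14 in knockout rats, against a background of 18.0% and 16.3%. Of the 160 wild-type-chosen fallers, 14 (8.75%) were higher and 16 (10.0%) lower. In wild-type rats, 61 of the 263 knockout-chosen risers were called higher (23.2%, background 16.9%) and 5 lower (1.90%, background 15.8%). Of the 160 knockout-chosen fallers, 53 (33.1%) were already lower at day 14 than at day 8 in wild-type rats and 3 were higher, with a median change of -0.21. The lists of the genotypes shared 126 risers, 46.5% of the wild-type and 47.9% of the knockout list, and 65 fallers, 40.6% of each.

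**Figure D4:**
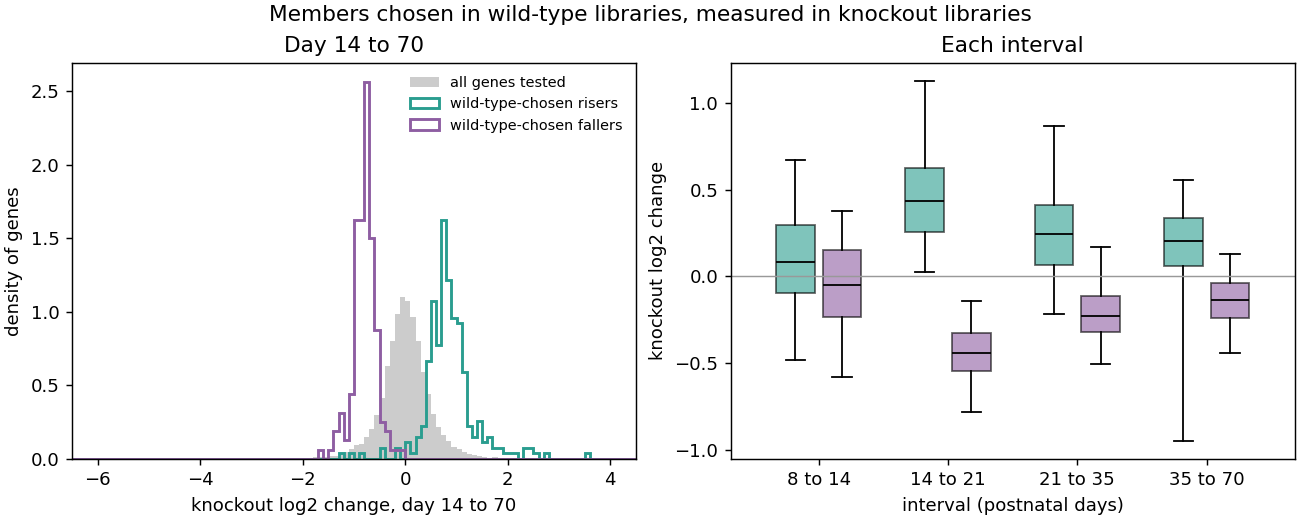
Log2 changes in the 25 knockout libraries of genes chosen in the 25 wild-type libraries. The left panel gives the density of the change from day 14 to 70 for 271 risers, 160 fallers and all 14768 genes tested. The right panel gives each interval, with risers left and fallers right in each pair, boxes from the first to the third quartile, a line at the median and whiskers at the percentiles 5 and 95. The medians of the first step after day 14 are 0.43 and -0.44.

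Loss of the transporter was compared with wild-type at each age, a contrast the choice of members did not use. No member passed at any age. At day 8, 0 of 402 members were called by limma, where 0.244% of 14779 genes were, and 19 risers and 26 fallers had an unadjusted p under 0.05, which 9.32% of all genes had. At day 14, 0 members were called (background 0.00677%), and 5 risers and 6 fallers had an unadjusted p under 0.05 (2.38% of all genes). At days 21, 35 and 70, 0 members were called and the background was 0% at each. The unadjusted counts were 6 risers and 4 fallers at day 21 (2.95% of all genes), 2 and 4 at day 35 (2.55%), and 9 and 3 at day 70 (2.40%). The median genotype difference of the risers from day 14 on lay between -0.01 and 0.03 log2 units, and that of the fallers between -0.03 and 0.00.

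The change from day 14 to 70 was also compared between genotypes directly. For this difference 0 members were called (background 0.00677%), and 3 risers and 3 fallers had an unadjusted p under 0.05 (1.89% of all genes). The middle of the distribution of this difference ran from -0.20 to 0.09 log2 units in risers and from -0.08 to 0.11 in fallers. On average over the ages 0 members were called (background 0.0338%), with 19 risers and 11 fallers at an unadjusted p under 0.05 (5.87% of all genes). For a genotype difference that depends on age, 0 were called (background 0.00677%), with 4 risers and 5 fallers at an unadjusted p under 0.05 (3.18% of all genes). The change from day 8 to 14, the flat interval, differed between genotypes in 0 members by limma (background 0%), and 13 risers and 11 fallers had an unadjusted p under 0.05 (6.25% of all genes).

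At day 8 the fallers leaned lower in knockout rats. Of the 26 with an unadjusted p under 0.05, 24 were lower, and 119 of all 159 fallers (74.8%) were lower, against 52.3% of all genes. Their median difference was -0.10 log2 units, against -0.01 for all genes. With the values as deposited it was -0.20 against -0.11, and with quantile normalization -0.08 against 0.01. The smallest adjusted p among the members belonged to a faller with a difference of -0.79 ± 0.19 (SE; limma adjusted p = 0.0674). Every knockout library lay below every wild-type library in 3 fallers (background 0.548%) and above in 0 (background 0.304%). The median difference of the risers was 0.02, and it was -0.06 with the values as deposited.

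This lean was not shared by all knockout libraries. Relative to the wild-type mean of day 8, the median faller stood at -0.22 in knockout library 29-4, -0.15 in 30-1 and -0.10 in 29-5, but at -0.02 in 28-1 and 0.02 in 30-5. The 5 wild-type libraries lay between -0.06 and 0.05. Without library 29-4 the median genotype difference was -0.07, and without 28-1 it was -0.13. The count of members called at day 8 rose to 4 without knockout library 28-1 and to 2 without 30-5, and was 1 without wild-type library 16-2 of day 21 or without knockout library 7-3 of day 35. Without libraries 20-2, 30-5 and 17-1 together, chosen after seeing the data, it was 2. The genotypes were deposited in separate tables, so table and genotype cannot be told apart.

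**Figure D5:**
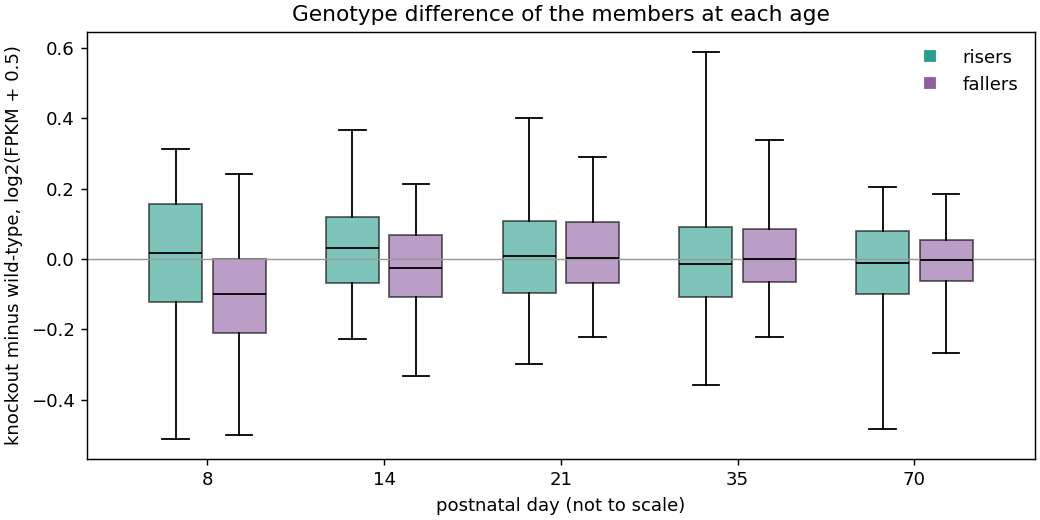
Knockout minus wild-type difference of the 243 risers and 159 fallers at each postnatal day, in units of log2(FPKM + 0.5). Boxes run from the first to the third quartile with a line at the median, and whiskers reach the percentiles 5 and 95. The box of the fallers at day 8 has its median at -0.10, and the medians of the later ages lie between -0.03 and 0.03.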

How the data were processed

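Per the labels' protocols, 50 bp reads were sequenced and aligned with gsnap, whereas BWA 0.6.1, bedtools, Cufflinks and the rn4 build appear in the submitters' processing notes. The annotation and strand setting are not given in the sources used here, so overlapping genes on opposite strands may share reads. The authors deposited FPKM values, one column per library and one table per genotype. All columns were matched to samples by title (0 unmatched), and 0 pairs of libraries were identical. The files do not pair Ensembl identifiers with symbols and the reference table matched 0 of them, so gene lists fixed by symbol, promoters and the deletion check were not analysed here.

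Libraries were divided by their median ratio to the geometric means of rows above 0 in all (factors 0.829 to 1.21) and values analysed as log2(FPKM + 0.5), which understates changes of low genes. The rule also drops 7 identifiers by name, 0 of which met it. Tests used limma 3.58.1 in R 4.3.3 (trend and robust variance), on 14779 genes averaging 0.5 FPKM or more, in 1 fit of 10 groups, with p-values adjusted by Benjamini-Hochberg over all genes and called under 0.05. All 402 members were tested. Python 3.11.15 and matplotlib 3.10.9 drew the figures. Genes named are the 2 with the largest change in each direction. The members and lists were chosen with earlier results of these data known. Alternatives were other scalings, pseudocounts of 0.1 and 1, no filter or a mean of 2 FPKM, another variance model, a random effect for the first number of the title, array weights, only the groups compared, and each library left out.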

Additional observations from a re-analysis of the deposited data

Results flagged for a closer look

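The mean log2 level of the risers in knockout library 30-5 of day 8 was 1.65, below the other 4 libraries of its group, which lay between 1.86 and 1.93. Its gap to the nearest of them was wide relative to the range of the group. Of 60 groups of 5 libraries checked in this way (the levels of risers and fallers and the FPKM of the 4 named genes), this 1 stood out, and chance alone marks about 1 in 20. The same library had one of the lowest correlations with its group.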

How the results depend on the processing

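The number of risers stayed within 1.5 times 243 under every alternative, and between 230 and 280 with single libraries left out. The fallers numbered 240 with the values as deposited but stayed within 1.5 times 159 otherwise, and ran from 148 to 172 with single libraries left out. The wild-type-chosen fallers called in knockout libraries were 246 with the values as deposited, and the other counts across genotypes stayed within 1.5 times their value. Members called at day 8 numbered 1 with a pseudocount of 1, 1 with no filter, 6 with array weights, 2 without the 3 libraries of lowest correlation, and 0 to 4 with single libraries left out. For a genotype difference that depends on age, array weights called 2. The cause of these changes was not tested. At the other ages, on average and for the change from day 14 to 70, all alternatives called 0 members. The median genotype difference of the risers at day 8 turned to -0.059 with the values as deposited, where that of all genes was -0.107. With the main scaling these medians were 0.017 and -0.01. The median of the risers ran from -0.012 to 0.055 with single libraries left out. No paired analysis was possible because no replicate number of the titles occurs in more than 1 group. Depth is known only as a ratio, so no counting error can be given for genes of low FPKM.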
